A study of Homo sapiens with 14 samples.

Results

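Ribosomal protein genes encode the proteins of the cytoplasmic ribosome. They were taken as the protein-coding genes whose symbols start with RPL and a digit or P (large subunit) or RPS and a digit or A (small subunit), without the RPS6K kinases, RPS27L and hyphenated symbols. The rule found 87 genes among the 60683 gene identifiers counted, 53 of the large and 34 of the small subunit, and it uses symbols only. One of the 87, RPS19BP1, is named after RPS19 but encodes a regulator of the deacetylase SIRT1 rather than a ribosomal protein. RPS4Y1 and RPS4Y2 lie on the Y chromosome, and their levels are not given.

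RNA sequencing was analysed from A549, a human lung adenocarcinoma line, and SUM159, a human triple-negative breast cancer line, with 2 libraries in each of 7 groups and 14 in all. A549 cells were left untreated or were treated with 2 µM palbociclib, an inhibitor of the kinases CDK4 and CDK6, with 0.5 µM indisulam, a sulfonamide that leads to degradation of the splicing factor RBM39, or with both drugs (the combination), each for 10 days. A further group of A549 and the only treated group of SUM159 received 0.5 µM PF-06873600, which inhibits CDK2, CDK4 and CDK6, for 7 days. Untreated cells of each line served as controls, and the sample labels give no day for them. The same 2 untreated A549 libraries were the control for the treatments of 10 days and of 7 days. The series describes the libraries of a group as technical duplicates, so the p-values below measure the spread between such duplicates and not between independent experiments. Palbociclib and PF-06873600 were used at different doses and for different times, and their values stand side by side without a test between them.

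A ribosome holds a single copy of nearly every one of these proteins, and their mRNAs are among the most abundant of a growing cell. Most of these mRNAs start with a cytosine followed by a run of pyrimidines, the 5′ terminal oligopyrimidine (TOP) motif, through which mTOR signalling and the protein LARP1 control their translation and stability. In many differentiated or arrested cells less ribosome is made, and single ribosomal proteins such as RPL5 and RPL11 also act outside the ribosome by binding MDM2. A few genes have a paralog whose protein can take the same place, for example RPL22L1 for RPL22.

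RefSeq promoter sequences (GRCh38.p14) were at hand for 69 of the 87 symbols. A cytosine at the annotated start followed by at least 4 more pyrimidines was found in 48 of these 69 (69.6%), and in 5.14% of all 27305 symbols with a window of the same length. A symbol with several windows counted once any of them held the run, which concerned 11 members with more than 1 window. The run was 8 bases long at the median, from 5 to 19 bases. The starts below belong to members that the results turn on, 15 bases before and 15 bases from the start on, read 5′ to 3′ on the strand of the gene, with the pyrimidine run that begins at the start in capitals.
RPL22, minus strand, chr1:6199581-6199610: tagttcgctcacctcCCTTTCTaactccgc
RPL22L1, minus strand, chr3:170870181-170870210: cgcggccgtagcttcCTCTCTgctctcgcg
RPL10, plus strand, chrX:154398362-154398391: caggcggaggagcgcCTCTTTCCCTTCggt
RPLP0, minus strand, chr12:120201097-120201126: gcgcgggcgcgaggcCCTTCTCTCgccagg
RPL13A, plus strand, chr19:49487593-49487622: cgacaaaacctcctcCTTTTCCaagcggct
RPS16, minus strand, chr19:39435935-39435964: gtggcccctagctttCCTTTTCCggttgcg
RPS6, minus strand, chr9:19380222-19380251: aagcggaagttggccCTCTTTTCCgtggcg
RPS19, plus strand, chr19:41860240-41860269: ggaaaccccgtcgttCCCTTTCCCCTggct
RPS26, plus strand, chr12:56041903-56041932: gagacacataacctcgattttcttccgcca
RPL26L1, plus strand, chr5:172958714-172958743: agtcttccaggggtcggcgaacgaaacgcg
RPS26 and RPL26L1 are shown because they hold no such run at the annotated start and rose in A549 with PF-06873600. RPS19 is shown because it holds a long run and did not pass the test with palbociclib, indisulam or the combination. They were picked by their values and do not stand for members with or without a run. With PF-06873600 in A549, 14 of 19 tested members without a run fell and 3 rose. Of 48 with a run, 44 fell and 1 rose, where 27.8% of all genes were lower and 28.5% higher. The 3 without a run that rose were RPS26 and, with few counts, RPL26L1 and RPL17. The split rests on the annotated start, and RPL17 has a pyrimidine run a few bases before it. In the whole window of 250 bases before to 50 bases after the start, on either strand, CCGGAAG stood in 33.3% of the 69 members and in 12.2% of all symbols, and ATGGCGG in 20.3% and 6.66%. The short form CTTTCC, on the strand of the gene from 10 bases before to 30 bases after the start, stood in 31.9% of members and 2.28% of all symbols, and it overlaps the TOP run by its letters. The E-box CACGTG (7.25% and 8.78%), TATAAA (10.1% and 14%) and GGGCGG (56.5% and 48.3%) stood in members about as often as elsewhere or moderately more or less often. A match of letters does not show that a factor binds there.

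Reads counted on genes numbered 13060374 to 21149256 per library, so that 3 counts, taken as the smallest level a library can show, corresponded to 0.142 to 0.23 CPM (counts on a gene after scaling the library's counts on all genes to 1000000). Reads not counted for low mapping quality amounted to 10.3% to 13.9% of the counts on genes. The lines were told apart by their markers. A549 libraries held KRT8, KRT18, ALDH1A1 and AKR1B10 at group means of 1554 to 6482 CPM, while the lung lineage genes NKX2-1 and SFTPC were at 0.33 CPM or less and SFTPB at 0. SUM159 libraries had the mesenchymal genes VIM, AXL and CDH2 at higher levels than A549 and ESR1 and PGR at 0.62 CPM or less, but held ERBB2 at group means of 120 and 128 CPM and GATA3 at 6.08 and 6.45 CPM. PTPRC and PECAM1, markers of blood and endothelial cells, were at 9.62 and 11.2 CPM in untreated SUM159 and at 19.1 and 26.6 CPM with PF-06873600. In A549 their group means did not exceed 1.55 CPM, and their part in the results was not tested.

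Ribosomal protein genes took up a smaller share of all counts in every treated group than in untreated cells of the same line. In untreated A549 the share was 6.70% and 7.26% in the individual libraries, with a mean of 6.98% ± 0.397 (SD, n = 2). Palbociclib libraries had 6.51% and 6.20%, indisulam libraries 5.47% and 5.58%, combination libraries 4.78% and 4.44% and PF-06873600 libraries 4.70% and 4.69%. No treated A549 library reached the lower untreated library, and the PF-06873600 libraries lay between the combination libraries. Untreated SUM159 had 4.27% and 4.11%, below every A549 library, and PF-06873600 left 2.82% and 2.92%. The smallest two-sided p of an exact permutation test between groups of 2 libraries is 0.33, so the share was not tested by itself. As these are bulk samples, fewer cells of a type and less RNA per cell cannot be told apart, and a share can fall because other mRNAs rise.

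**Figure D1:**
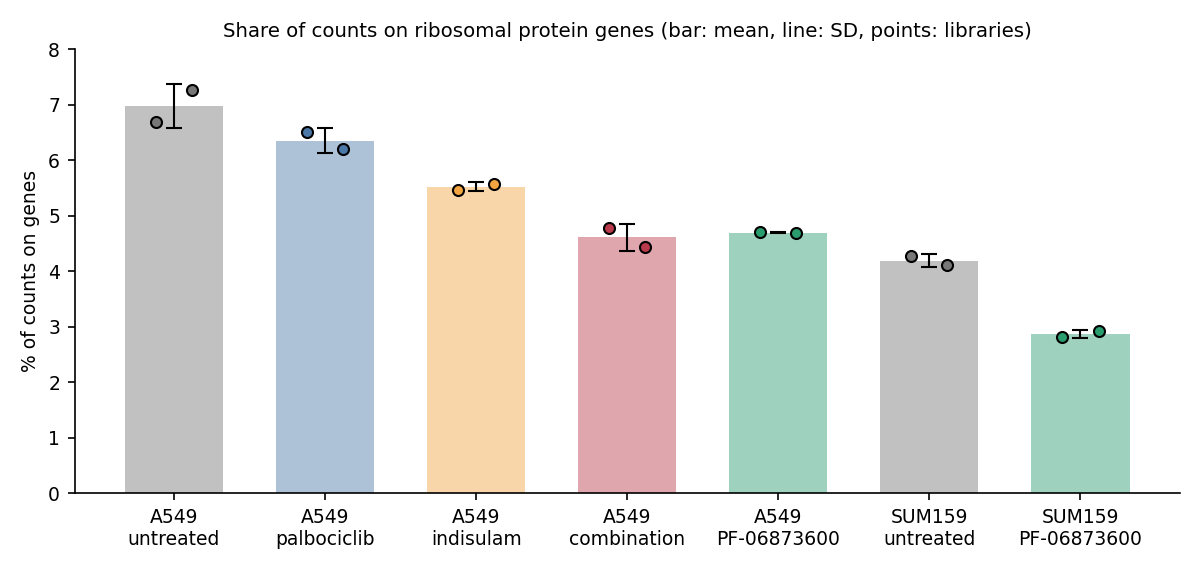
The vertical axis gives the percentage of all counts on genes that fell on the 87 ribosomal protein genes, for the 7 groups on the horizontal axis, with a bar for the mean, a line for the SD and a point for each of the 2 libraries. The A549 means decline from 6.98% in untreated cells to 4.61% with the combination and 4.69% with PF-06873600, and the SUM159 means from 4.19% to 2.87%.

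Both subunits declined. The large subunit took up 4.14% ± 0.177 of counts in untreated A549 and 2.77% ± 0.146 with the combination, and the small subunit 2.84% ± 0.22 and 1.84% ± 0.0992. In SUM159 the large subunit went from 2.58% ± 0.0718 to 1.79% ± 0.041 and the small subunit from 1.61% ± 0.044 to 1.07% ± 0.0275. The median member stood at 576 CPM in untreated A549, 523 CPM with palbociclib, 453 CPM with indisulam, 362 CPM with the combination and 419 CPM with PF-06873600. In SUM159 the median was 430 CPM untreated and 305 CPM with PF-06873600. Reads of low mapping quality moved the same way in A549, from 13.7% ± 0.28 of counts on genes in untreated A549 to 12.7% with palbociclib, 12.4% with indisulam, 12.1% with the combination and 11.6% with PF-06873600, while in SUM159 they were at 10.97% ± 0.898 untreated and 10.9% ± 0.61 with the drug. Their part in the result was not tested. Ribosomal protein genes have many processed pseudogenes, 1599 named after 78 of the members and 133 of them after RPL21 alone. Counts on these pseudogenes came to 0.0405% of all counts in untreated A549 and 0.022% in SUM159 with PF-06873600. For single members they were larger next to the gene's own counts. Over all 14 libraries they amounted to 1023% of these for RPL36A, 56.0% for RPS10 and 27.7% for RPL17.

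Levels between genes were compared per kilobase of the Ensembl canonical transcript. On that scale RPS16, a protein of the small subunit head, led in untreated A549 with 3204 CPM per kilobase, followed by RPL13A with 3106. These neighbours did not differ beyond their spread, since the SD was 53.6 for RPS16 and 193 for RPL13A. Their order also depends on the annotated transcript, which was 631 bases long for RPS16 and 1127 for RPL13A. Without regard to length RPL13A had 3501 CPM and RPS16 2022 CPM. On the scale of CPM alone, 74 of the 87 members had a group mean of at least 100 CPM in untreated A549 and 9 were under 20 CPM. The 5 highest members held 22.2% of the members' counts there and 15.9% in untreated SUM159. RPL10L, a paralog of RPL10 known from testis, received 20 counts over all 14 libraries and RPL3L, the paralog of RPL3 known from muscle, 1 count, so that these genes and RPS4Y2 could not be tested.

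**Figure D2:**
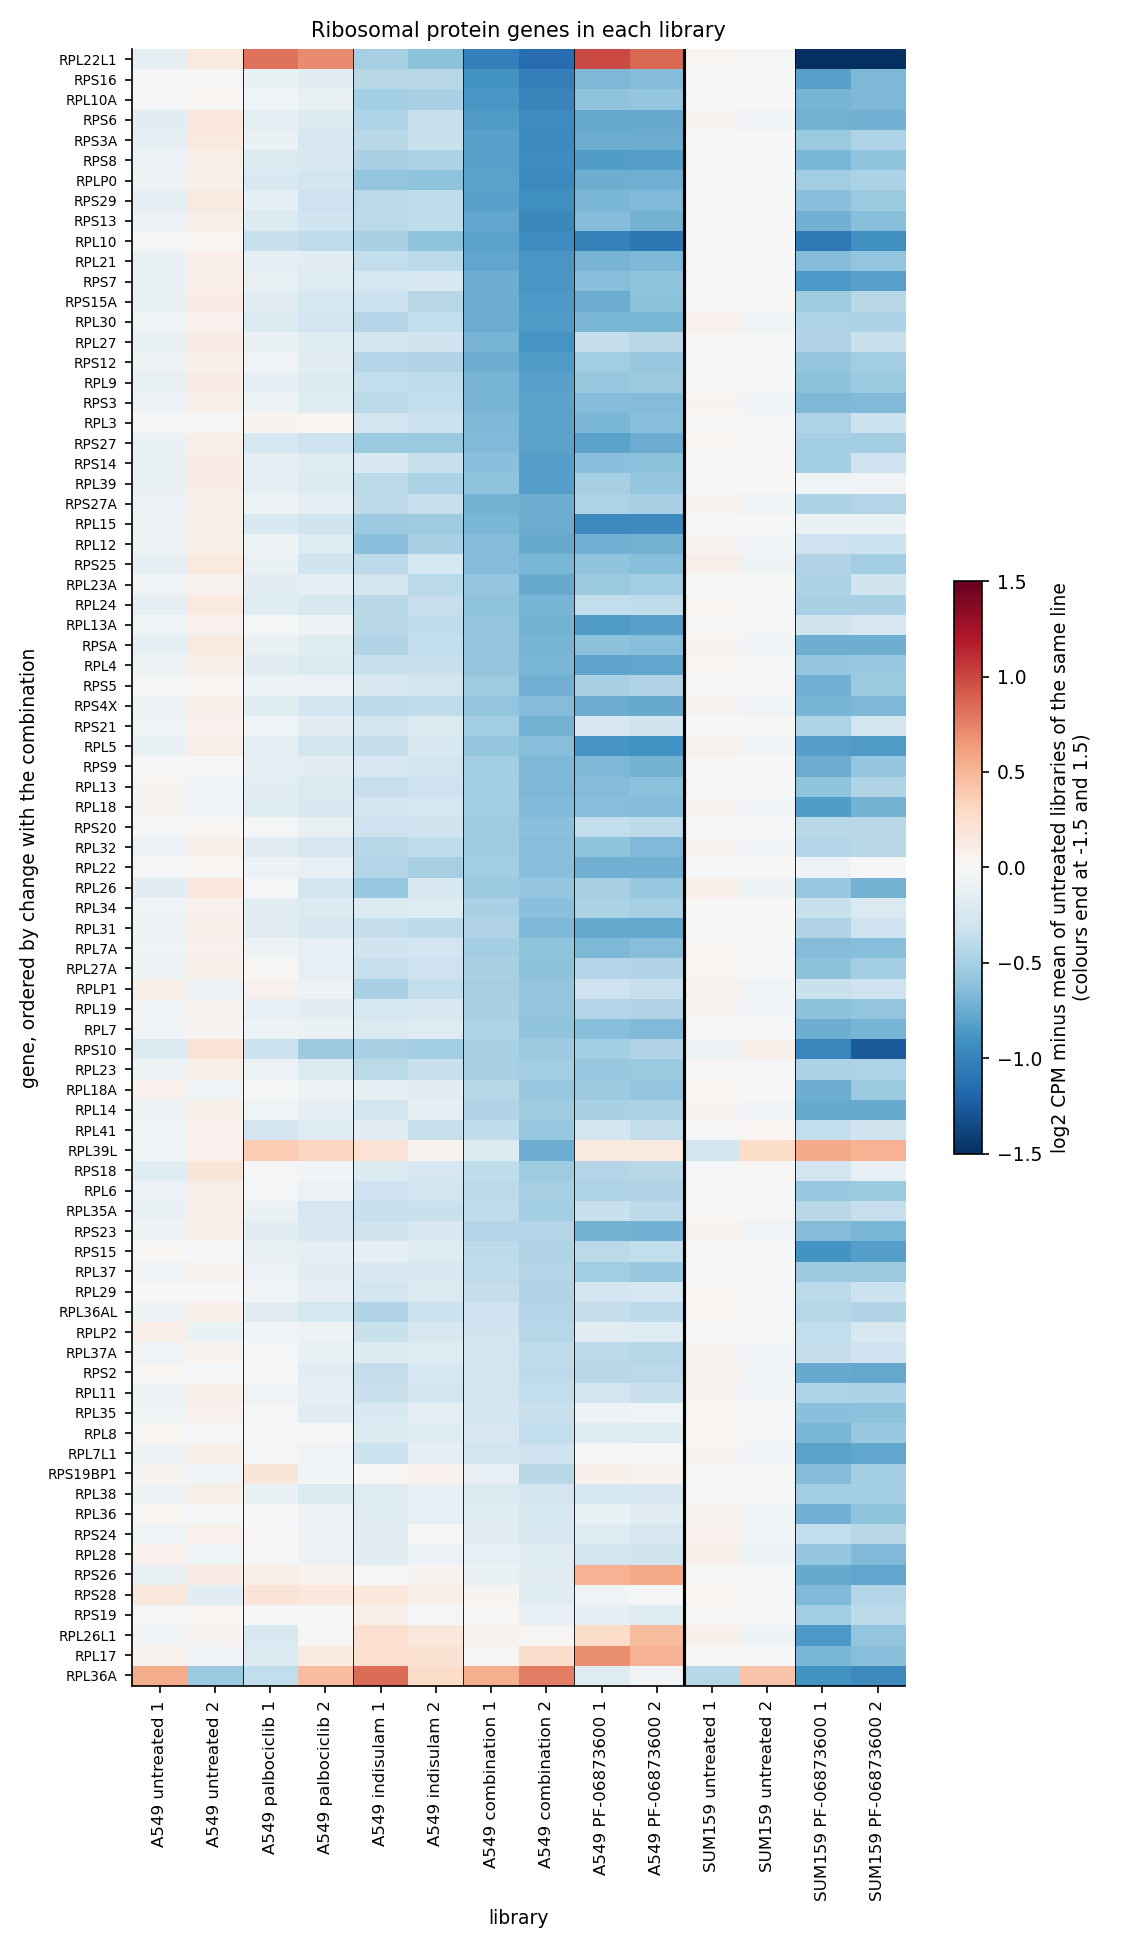
Rows are ribosomal protein genes tested in both lines, ordered by their change with the combination, and columns are the 14 libraries, with the colour giving log2 CPM minus the mean of the untreated libraries of the same line (colours end at -1.5 and 1.5). Blue fills most rows under indisulam, the combination and PF-06873600, and the rows of RPL22L1, RPS26, RPL26L1 and RPL17 are red under PF-06873600 in A549 and blue in SUM159.

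Palbociclib alone was compared with untreated A549 to see what CDK4 and CDK6 inhibition did over 10 days. The decline of ribosomal protein genes was small. Of 84 members tested, 15 fell and 1, RPL22L1, rose (edgeR quasi-likelihood test, Benjamini-Hochberg adjusted p under 0.05 over 15780 genes), against 7.4% of all genes tested that were lower and 8.3% that were higher. The median log2 fold change was -0.13 over members and -0.01 over all genes. Lowest among those that fell were RPL10, which completes the large subunit near the site of peptide bond formation, RPS27 and RPL15. RPL10 had 1171 and 1217 CPM untreated and 945 and 916 CPM with palbociclib, a log2 fold change of -0.36 ± 0.06 (SE, adjusted p = 0.0011). RPS27 changed by -0.29 ± 0.07 (adjusted p = 0.01) and RPL15 by -0.27 ± 0.06 (adjusted p = 0.0066). In 44 members both palbociclib libraries lay below both untreated libraries, as did those of 26.5% of all genes. The count of 15 rested on single libraries. It was 48 without untreated replicate 1, 8 without untreated replicate 2, 6 without palbociclib replicate 1 and 1 without palbociclib replicate 2, and RPS27 and RPL15 missed the threshold without the latter (-0.27, adjusted p = 0.089, and -0.24, adjusted p = 0.077).

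Indisulam alone lowered 71 of 84 members and raised none by the same test, where 17.5% of all genes were lower and 28% higher. The median member changed by -0.31, the median gene by 0.08. RPLP0, the base of the ribosomal stalk, had 2607 and 2886 CPM untreated and 1822 and 1800 CPM with indisulam, a change of -0.60 ± 0.06 (adjusted p = 2.9e-06). RPL22L1 (-0.56 ± 0.11, adjusted p = 0.00092) and RPL12 of the stalk base (-0.56 ± 0.07, adjusted p = 1.2e-05) were next. In 74 members the indisulam libraries lay below both untreated libraries, against 28% of all genes. Members that did not pass the test included RPS19 (0.03 ± 0.06) and RPS26 (0.00 ± 0.07).

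The combination lowered 77 of 84 members against untreated cells and raised none, against 30% of all genes that were lower and 35.1% that were higher. The median log2 fold change of members was -0.58, that of all genes 0.05. The 3 lowest members were RPL22L1 (-1.10 ± 0.12, adjusted p = 1.2e-06), RPS16 and RPL10A. RPS16 had 1998 and 2046 CPM untreated and 1090 and 991 CPM with both drugs, a change of -0.96 ± 0.06 (adjusted p = 1.7e-09). RPL10A, of the L1 stalk where spent tRNA leaves, had 521 and 542 CPM untreated and 291 and 267 CPM with both drugs, a change of -0.93 ± 0.06 (adjusted p = 2.7e-09). Among the 7 members that did not pass were RPS19 (-0.05 ± 0.06), RPS28 (-0.08 ± 0.09) and, with few counts, RPL36A (0.57 ± 0.30). Libraries did not overlap in 77 members that were lower, against 37.6% of all genes.

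Each drug of the combination was then asked for by itself, with the other present in both groups. Adding indisulam to palbociclib lowered 75 members and raised none, where 26.9% of all genes were lower and 33.5% higher, with a median of -0.43 over members. RPL22L1 fell most, with -1.85 ± 0.11 (adjusted p = 3.2e-09), from 41.8 and 38.7 CPM with palbociclib to 11.6 and 10.7 CPM. RPL10A (-0.84 ± 0.06, adjusted p = 1.2e-08) and RPS16 (-0.83 ± 0.06, adjusted p = 1.1e-08) followed. In 77 members both combination libraries lay below both palbociclib libraries, against 37.1% of all genes. Adding palbociclib to indisulam lowered 52 members and raised none, against 23.9% of all genes lower and 22% higher, with a median of -0.25. In 71 members both combination libraries lay below both indisulam libraries, against 38.9% of all genes. The lowest were RPL39L (-0.59 ± 0.16, adjusted p = 0.0066), RPS7 (-0.56 ± 0.07, adjusted p = 1.4e-05) and RPS16 (-0.54 ± 0.06, adjusted p = 2.2e-06). RPL39L missed the threshold without combination replicate 2 (-0.34, adjusted p = 0.12) or indisulam replicate 1 (-0.51, adjusted p = 0.055). The comparisons of the combination share its libraries, so their counts are not independent of each other.

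**Figure D3:**
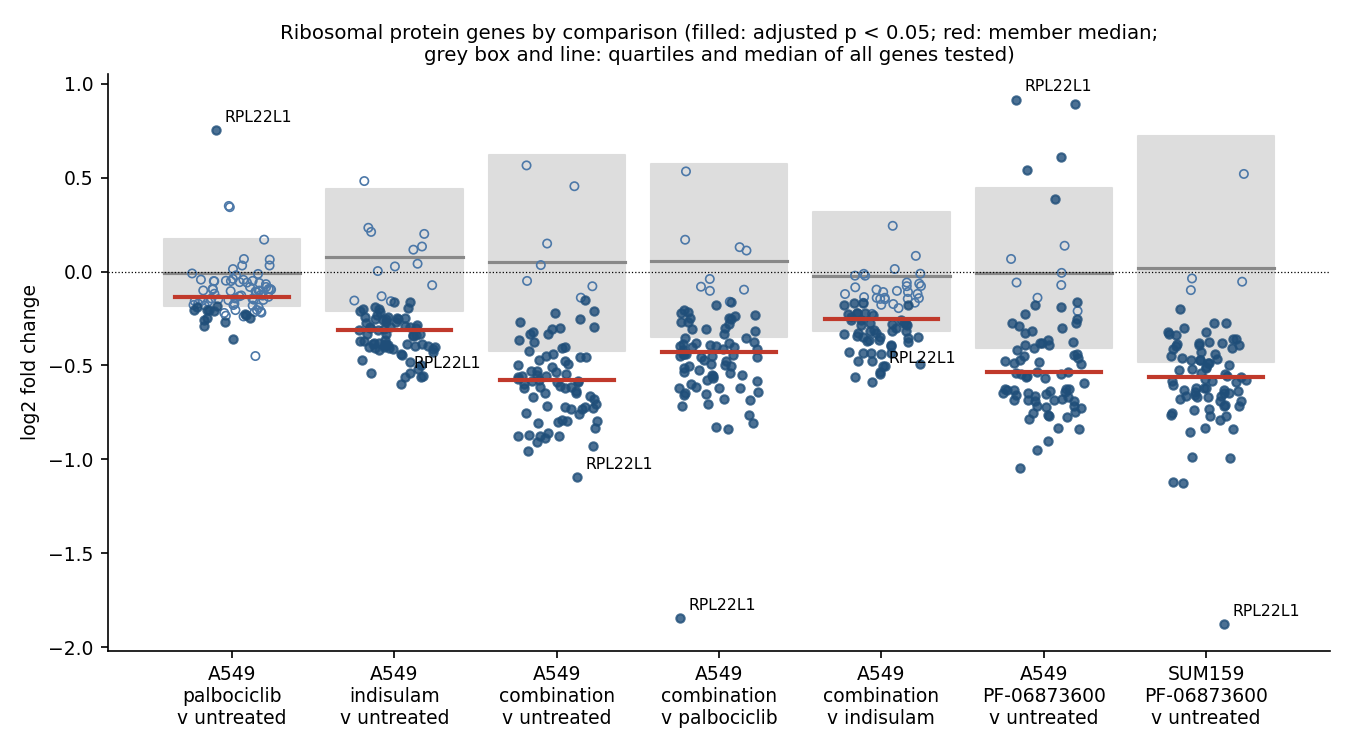
The vertical axis gives the log2 fold change of each ribosomal protein gene (point, filled where the adjusted p was under 0.05) in the 7 comparisons on the horizontal axis, with the median of the members in red and the quartiles and median of all genes tested in grey. The member median lies below the median of all genes in each, from -0.13 with palbociclib to -0.58 with the combination in A549 and -0.56 with PF-06873600 in SUM159. RPL22L1 is the highest member with palbociclib and with PF-06873600 in A549 and the lowest with the combination against untreated, with the combination against palbociclib and with PF-06873600 in SUM159.

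PF-06873600 lowered 72 of 84 members in A549 and raised 5, where 27.8% of all genes were lower and 28.5% higher. The median member changed by -0.54, the median gene by -0.01. In 73 members both treated libraries lay below both untreated ones, against 38% of all genes. RPL10 had 590 and 565 CPM with the drug, against 1171 and 1217 CPM without, a change of -1.05 ± 0.06 (adjusted p = 3.5e-09). RPL15 (-0.95 ± 0.06, adjusted p = 7.2e-09) and RPL5 (-0.90 ± 0.07, adjusted p = 8.3e-08) were next lowest. The members that rose included RPL22L1 (0.91 ± 0.10, adjusted p = 2.3e-06), RPL17 (0.61 ± 0.15, adjusted p = 0.0025), RPS26 (0.54 ± 0.07, adjusted p = 1.5e-05) and RPL26L1 (0.38 ± 0.13, adjusted p = 0.018). Of these, RPL17 had at most 12.1 CPM in any A549 library and belongs to the genes with uncertain counts described further on. It missed the threshold once counts of its pseudogenes were added (0.26). RPL26L1 was also low, with group means of 9.56 CPM untreated and 12.4 CPM with the drug.

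In SUM159 the same dose and time lowered 79 of 83 members and raised none, where 35.6% of all 15055 genes tested were lower and 38.1% higher. The median member changed by -0.56 and the median gene by 0.02. RPL22L1 had 184 and 177 CPM untreated and 46.9 and 50.9 CPM with the drug, a change of -1.88 ± 0.06 (adjusted p = 1.2e-12) that was the largest of the family. RPS10, with at most 7.14 CPM, changed by -1.12 ± 0.18 (adjusted p = 5.3e-05). RPL10 had 734 and 730 CPM untreated and 349 and 385 CPM treated (-0.995 ± 0.06, adjusted p = 2.9e-09). The 4 members that did not pass were RPL15 (-0.10 ± 0.06), RPL22 (-0.04 ± 0.06), RPL39 (-0.05 ± 0.05) and RPL39L (0.52 ± 0.27). In 81 members both treated libraries lay below both untreated ones, against 41.9% of all genes.

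The A549 and SUM159 responses to PF-06873600 share no libraries. Of the 83 members tested in both, 68 fell in both lines, which was 94.4% of those that fell in A549 and 86.1% of those that fell in SUM159. Over all 13607 genes tested in both lines the shares were 42% and 31%. Since 79 of the 83 members fell in SUM159, an overlap of about this size follows from the counts of each line. All 5 members that rose in A549 fell in SUM159, as did 35.4% of all genes that rose in A549. Nearly all members fell in SUM159, so their fall there does not set these 5 apart. The difference between the lines was tested as an interaction in a model of all 14 libraries. It passed for 12 of 84 members with a higher and 18 with a lower change in SUM159, and for 25.8% and 27.2% of all 17279 genes, so that the members' counts did not exceed the background. The split depended on scaling and was 18 and 15 with TMM factors and 16 and 15 with DESeq2. The count of 12 also rested on single libraries. It was 22 without untreated A549 replicate 1, 7 without untreated A549 replicate 2, 6 without A549 PF-06873600 replicate 1 and 7 without replicate 2 of either SUM159 group. The largest differences, as SUM159 minus A549, included those of RPL22L1 (-2.79 ± 0.12, adjusted p = 7.5e-13) and RPS26 (-1.31 ± 0.09, adjusted p = 7.4e-10) in one direction. In the other they were those of RPL15 (0.85 ± 0.08, adjusted p = 5.1e-08), RPL22 (0.69 ± 0.08, adjusted p = 1.2e-06) and RPL13A (0.56 ± 0.09, adjusted p = 1.8e-05).

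RPS26, which lies where mRNA leaves the small subunit, had 84.4 and 98.3 CPM in untreated A549 and 131 and 136 CPM with PF-06873600. In SUM159 it had 127 and 124 CPM untreated and 74.3 and 73.2 CPM with the drug (-0.77 ± 0.05, adjusted p = 6e-09). Neither pair of groups overlapped, in opposite directions. RPL15, an RNA-binding core protein of the large subunit, had 1163 and 1301 CPM in untreated A549 and 637 in both PF-06873600 libraries. In SUM159 it went from 460 and 446 CPM to 424 and 422 CPM, which did not pass the test. RPL13A had 3347 and 3655 CPM in untreated A549 and 1947 and 1984 CPM with the drug, and 927 and 912 CPM in untreated SUM159 and 745 and 773 CPM with the drug.

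Untreated SUM159 was compared with untreated A549 to describe the starting point of each line. Of 84 members 58 were lower and 12 higher in SUM159, where 36.8% of all 17279 genes tested were lower and 41.9% higher, and the median member differed by -0.47 against 0.08 for all genes. Both SUM159 libraries lay below both A549 libraries in 60 members, against 40.5% of all genes. RPL39L (-2.74 ± 0.21, adjusted p = 4.6e-10) and RPL13A (-1.93 ± 0.06, adjusted p = 7.3e-16) were lowest of the members described. RPL22L1 (2.91 ± 0.09, adjusted p = 1.6e-16), RPL7L1 (1.47 ± 0.07, adjusted p = 9.6e-14) and RPL17 (1.12 ± 0.13, adjusted p = 1.6e-07) were highest. The 3 abundant small-subunit members RPS16, RPS6 and RPS19 were at 644 and 634, 1121 and 1062, and 587 and 572 CPM in untreated SUM159, below all A549 libraries. Members differed in how widely they ranged over the 7 groups. Of the members described, RPL22L1 spanned 4.01, RPL39L 3.09, RPS16 2.40 and RPS6 2.38 log2 units between their highest and lowest group means. At the narrow end RPL29 spanned 0.40, RPLP2 0.45, RPS18 0.47, RPL11 0.47 and RPL38 0.52.

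Among members with roles outside the ribosome or in assays, RPS6, the substrate of the S6 kinases, had 3094 and 3841 CPM in untreated A549. It fell to 1916 and 1786 CPM with the combination (-0.91 ± 0.08, adjusted p = 2.4e-07) and to 2032 and 2035 CPM with PF-06873600 (-0.77 ± 0.08, adjusted p = 2e-06). The untreated libraries were the most unequal of the groups for this gene, yet lay above all libraries of both treatments. RPL5 and RPL11 form a particle with 5S ribosomal RNA. RPL5 changed by -0.90 ± 0.07 in A549 and by -0.84 ± 0.06 in SUM159 with PF-06873600 (adjusted p = 1.7e-08 in SUM159), and RPL11 by -0.30 ± 0.06 (adjusted p = 0.00097) and -0.47 ± 0.06 (adjusted p = 7.3e-06). RPL13, the reference gene of the study's quantitative PCR, had 1091 and 1029 CPM in untreated A549, 834 and 852 with indisulam, 744 and 667 with the combination and 678 and 693 with PF-06873600. It fell with indisulam (-0.33 ± 0.06, adjusted p = 0.00048), the combination (-0.59 ± 0.06, adjusted p = 8.1e-07) and PF-06873600 (-0.63 ± 0.06, adjusted p = 6.1e-07). RPL13 was also lower with palbociclib, close to the threshold, at a group mean of 932 CPM against 1060 CPM untreated. In SUM159 its group mean fell from 516 CPM untreated to 359 CPM with PF-06873600, which passed the test. The study's PCR with indisulam used a higher dose for a shorter time than these libraries. The level of RPL13 under those conditions was not measured here.

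RPS19, a small-subunit protein whose loss causes Diamond-Blackfan anaemia, changed little in A549. It had 1592 and 1651 CPM untreated, 1605 and 1615 with palbociclib, 1717 and 1587 with indisulam, 1640 and 1492 with the combination and 1472 and 1429 with PF-06873600. The groups overlapped except for PF-06873600, where it changed by -0.16 ± 0.06 (adjusted p = 0.033). In SUM159 it changed by -0.45 ± 0.06 (adjusted p = 1.3e-05), from 587 and 572 to 405 and 443 CPM. The difference between the lines was -0.29 ± 0.09 (adjusted p = 0.0099).

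The paralogs RPL22 (ENSG00000116251) and RPL22L1 changed in opposite directions with PF-06873600 in A549 and both fell with indisulam and the combination. Counts of RPL22 in A549 fell from 151 and 159 CPM untreated to 114 and 110 with indisulam, 108 and 99.5 with the combination and 93.9 and 93.6 with PF-06873600. RPL22L1 in A549 had 21.5 and 26.3 CPM untreated, 41.8 and 38.7 with palbociclib, 16.9 and 15.5 with indisulam, 11.6 and 10.7 with the combination and 47.1 and 43.1 with PF-06873600. None of these groups of RPL22L1 overlapped the untreated libraries, with palbociclib and PF-06873600 above and indisulam and the combination below. The log2 fold changes of RPL22L1 were 0.75 ± 0.10 (adjusted p = 0.00016) with palbociclib and 0.91 ± 0.10 (adjusted p = 2.3e-06) with PF-06873600. For RPL22 they were -0.11 ± 0.06, which did not pass, and -0.72 ± 0.06 (adjusted p = 1.3e-07). Per length of transcript, RPL22L1 made up 13.3% and 15.2% of the pair in untreated A549, 35.2% and 33.3% with PF-06873600, 13.8% and 13.3% with indisulam and 10.5% in both combination libraries. In SUM159 it made up 73.8% and 72.4% untreated and 42.8% and 43.3% with PF-06873600, where RPL22 had 70.8 and 73.0 CPM untreated and 67.9 and 72.2 CPM treated.

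**Figure D4:**
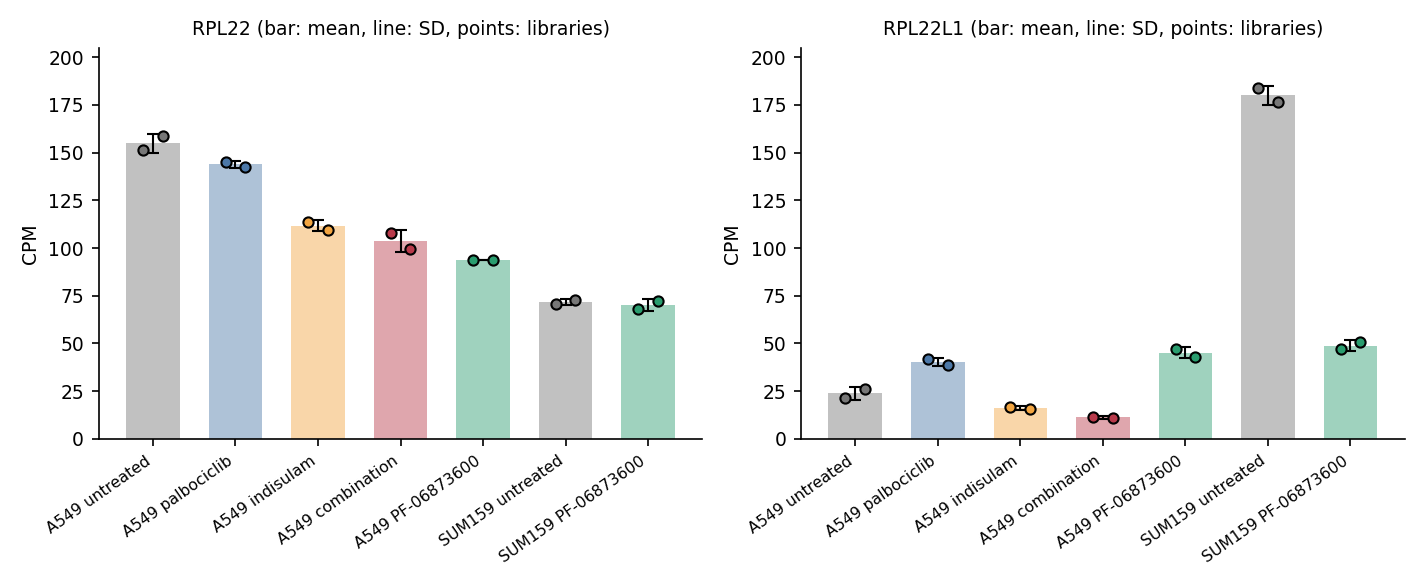
The vertical axis gives CPM of RPL22 (left) and RPL22L1 (right) in the 7 groups, with a bar for the mean, a line for the SD and a point for each of the 2 libraries. RPL22L1 is highest in untreated SUM159 (184 and 177 CPM) and lowest in A549 with the combination (11.6 and 10.7 CPM), while RPL22 is highest in untreated A549 (151 and 159 CPM).

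The other paralogs were minor next to their partners, apart from RPL36AL. The counts of its partner RPL36A are uncertain, as described below, so the balance of that pair is uncertain too. RPL39L, a paralog of the exit tunnel protein RPL39, made up 1.89% to 3.15% of the pair per length in A549 libraries and 0.408% to 0.756% in SUM159. RPL26L1 made up 1.54% to 3.56% of the pair with RPL26 in A549 and 3.54% to 4.64% in SUM159. RPL7L1, whose protein acts in assembly of the large subunit, made up 2.89% to 4.82% of the pair with RPL7 in A549 and 12.99% to 13.85% in SUM159. RPL7L1 fell in SUM159 with PF-06873600 (-0.79 ± 0.05, adjusted p = 5.6e-09) and was at -0.01 ± 0.07 in A549. Reads of low mapping quality were not counted. Whether reads that fit both genes of a pair were among them is not given in the sources used here.

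The counts of RPL17, RPL36A and RPS10 are uncertain. They had at most 16.5 CPM in any library although their proteins belong to every ribosome, and each overlaps a read-through gene model on its own strand in GENCODE release 44 (RPL17-C18orf32, RPL36A-HNRNPH2 and RPS10-NUDT3). Reads set aside as ambiguous, outside the counts on genes, amounted to 3.68% to 4.40% of these counts per library. Whether reads in such overlaps were among them is not given in the sources used here. Without members of such uncertain counts, the paralogs and RPS19BP1, 73 members remained. Of these, 70 fell and none rose with the combination, where 30% of all genes were lower and 35.1% higher. With PF-06873600 in A549, 69 fell and 1 (RPS26) rose, where 27.8% of all genes were lower and 28.5% higher. With PF-06873600 in SUM159, 70 fell, where 35.6% of all genes were lower and 38.1% higher. RPS19BP1 itself had 30.9 and 29.4 CPM in untreated A549, changed by 0.07 ± 0.10 with PF-06873600 in A549 and changed by -0.58 ± 0.07 (adjusted p = 1.5e-06) in SUM159.

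Members were also split by features that the rule did not use. The 28 that host a small nucleolar RNA in an intron had a median log2 fold change of -0.64 with the combination and the other 56 tested one of -0.53. With PF-06873600 hosts had a median of -0.64 in A549 and -0.55 in SUM159 and the others one of -0.44 in A549 and -0.58 in SUM159, so the order was not the same in both lines. The 48 members with a TOP run at the annotated start and the 19 tested members without one had medians of -0.58 each with the combination and of -0.52 and -0.46 with PF-06873600 in A549. In SUM159 they were -0.52 (47 members) and -0.59 (19 members). Large and small subunit members had medians of -0.55 and -0.62 with the combination. None of these splits was tested, since the members are not independent replicates.

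Ribosomal proteins whose symbols fall outside the rule include FAU and RACK1. Both fell with indisulam, with the combination and, in SUM159, with PF-06873600. FAU, the precursor of a small-subunit protein, had 312 and 291 CPM in untreated A549 and 204 and 186 CPM with the combination (-0.63 ± 0.06, adjusted p = 6.8e-07). Translation factors and other proteins known to be made from TOP mRNAs were taken as a list of 15, of which EEF1G was listed at 0 and 14 could be tested. With the combination 12 fell and none rose (median -0.62), where 30% of all genes were lower. With PF-06873600 13 fell and none rose in A549 (median -0.80), and in SUM159 12 fell and 1, TPT1, rose (median -0.37), where 27.8% and 35.6% of all genes were lower. The lowest were HNRNPA1, an RNA-binding protein, with -1.12 ± 0.06 under the combination (adjusted p = 2.7e-10), and EIF4B, a helicase cofactor, with -1.23 ± 0.06 under PF-06873600 in A549 (adjusted p = 7.5e-10). TPT1 fell in A549 (-0.95 ± 0.07, adjusted p = 6.7e-08) and rose in SUM159 (0.23 ± 0.07, adjusted p = 0.0084), a difference of 1.18 ± 0.10 (adjusted p = 1.3e-08).

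Of 63 biogenesis factors (RNA polymerase I, its initiation factors, snoRNP proteins and assembly factors), PF-06873600 raised 32 and lowered 5 in A549, with a median of 0.21, where 28.5% of all genes were higher and 27.8% lower. It lowered 60 and raised none in SUM159, with a median of -1.01, where 35.6% of all genes were lower and 38.1% higher. The difference between the lines passed the test for 59 factors that were lower and 1 that was higher in SUM159, with a median of -1.28, against 27.2% and 25.8% of all genes. BOP1, needed for processing of 28S ribosomal RNA, changed by 1.13 ± 0.10 in A549 (adjusted p = 3.8e-07) and -1.12 ± 0.06 in SUM159 (adjusted p = 3.6e-10). FBL, the methyltransferase fibrillarin, fell in both, with -0.61 ± 0.05 (adjusted p = 1.5e-07) and -2.32 ± 0.06 (adjusted p = 2.3e-13). Palbociclib raised 2 and lowered 5 factors (8.3% and 7.4% of all genes), and indisulam raised 17 and lowered 4 (28% and 17.5% of all genes), so these counts were near or below the background. The combination raised 12 and lowered 31 (35.1% and 30% of all genes), with FBL lowest (-1.38 ± 0.05, adjusted p = 1.7e-11) and LSG1, which releases the export factor from the large subunit, highest (0.67 ± 0.08, adjusted p = 4.3e-06). In untreated cells 54 factors were higher and 3 lower in SUM159 than in A549, with a median of 1.14, against 41.9% and 36.8% of all genes.

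**Figure D5:**
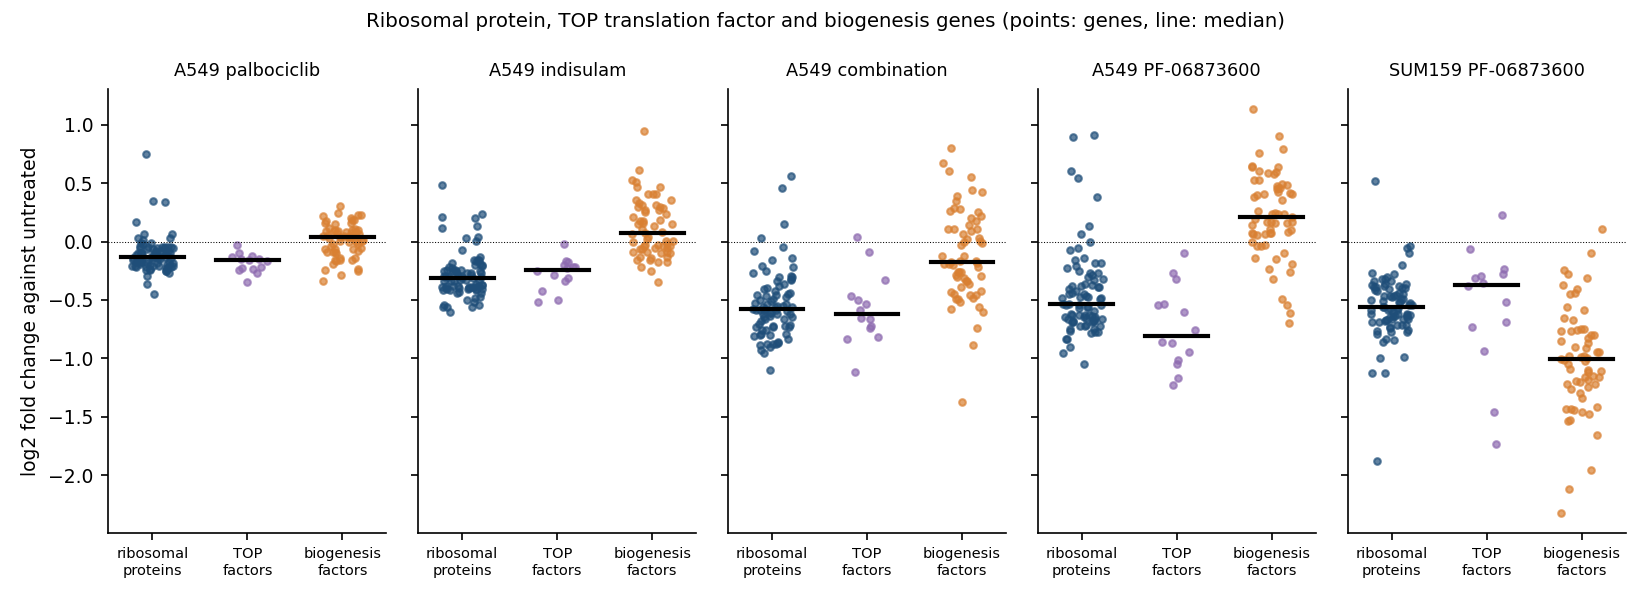
The vertical axis gives the log2 fold change against untreated cells of each ribosomal protein gene, TOP translation factor and ribosome biogenesis gene (points, with a black line at the median) for the 5 treatments, 1 panel each. Biogenesis genes lie mostly above 0 in A549 with PF-06873600 (median 0.21) and mostly below 0 in SUM159 (median -1.01), while ribosomal protein genes lie below 0 in both (medians -0.54 and -0.56).

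Of 8 listed symbols for dedicated chaperones and importers of ribosomal proteins, 6 were matched and tested. AROS is an older name of RPS19BP1, which was counted among the members. SYO1 matched no gene by that name. PF-06873600 raised 2 of the 6 in A549 (BCCIP by 0.73 ± 0.08, adjusted p = 2.2e-06, and GRWD1 by 0.37 ± 0.07, adjusted p = 0.0006) and lowered 2. In SUM159 it lowered 5 and raised none. With the combination 2 fell, NAP1L1 and HEATR3, the importer of RPL5. All genes were lower in 27.8%, 35.6% and 30% of cases in these comparisons, so the counts in A549 were near the background. Of 14 genes that control TOP mRNAs, 4 rose and 5 fell in A549 with PF-06873600 and 3 rose and 10 fell in SUM159. The combination raised 2 and lowered 4. Against 28.5% higher and 27.8% lower of all genes in A549 with PF-06873600 and 35.1% and 30% with the combination, these counts were near or below the background, and in SUM159 35.6% of all genes were lower. EIF4EBP1, the translation repressor that mTOR inactivates, fell in A549 with palbociclib (-0.40 ± 0.06, adjusted p = 0.0005), indisulam (-0.83 ± 0.06, adjusted p = 1e-07), the combination (-1.79 ± 0.07, adjusted p = 1.1e-11) and PF-06873600 (-1.28 ± 0.06, adjusted p = 6.3e-10), and in SUM159 with PF-06873600 (-0.48 ± 0.07, adjusted p = 2.4e-05). MYC, an activator of ribosome genes, rose in A549 with PF-06873600 (0.80 ± 0.07, adjusted p = 1.2e-07) and fell in SUM159 (-0.16 ± 0.06, adjusted p = 0.025). LARP1, which binds the TOP motif, changed by -0.07 ± 0.05 with the combination, which did not pass, and fell in SUM159 with PF-06873600 (-0.83 ± 0.06, adjusted p = 8.1e-09).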

How the data were processed

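Total RNA of 14 libraries was sequenced by the authors after a stranded mRNA preparation. The submitters' processing notes name HISAT2 2.2.1, HTSeq and GRCh38. The annotation release and the strand setting of counting are not given in the sources used here. The authors deposited whole-number read counts per gene without normalization, 1 table per library, with 60683 gene identifiers and summary lines that were kept out of totals and tests. Symbols and positions of 60370 identifiers came from GENCODE release 44.

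Counts were scaled by the total on genes, after the study's size factor, filtered with filterByExpr and tested with edgeR 4.0.16 (R 4.3.3, quasi-likelihood F test, Benjamini-Hochberg adjustment over all genes tested, threshold 0.05). The A549 model held 10 libraries, the SUM159 model 4 and the model of both lines 14. A standard error is the size of the log2 change over the root of its F statistic. The fit was checked on simulated counts. Members, gene lists and named genes were chosen with earlier results of these data known. The named members were, in each comparison, the 3 lowest and 3 highest among those past the threshold, members fixed by role, paralog pairs, and the 5 members with the widest and narrowest range. The text gives values of some, and gives none for RPS4Y1, which lies on the Y chromosome. Some further genes are counted among the members and lists but are not reported here. RPS19, RPS26 and RPS28 also appear where they did not move with the others, chosen after their values were seen. Alternatives were TMM factors, DESeq2 1.42.0, fits of the compared groups alone, all genes with any count, a minimum mean of 50 counts, a replicate block, each library left out, scaling outside the members and added pseudogene counts. The smallest shown level, 3 counts, covers counting error only.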

Additional observations from a re-analysis of the deposited data

Results flagged for a closer look

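Ribosomal protein genes whose response to PF-06873600 differed between SUM159 and A549, by the interaction test of edgeR with adjusted p under 0.05, were 18 with a lower and 12 with a higher change in SUM159, against 27.2% and 25.8% of all genes, so the counts did not exceed the background. As SUM159 minus A549 on the log2 scale, the difference was -2.79 for RPL22L1 and -1.31 for RPS26. It was 0.85 for RPL15, 0.69 for RPL22 and 0.56 for RPL13A. No group had the 4 libraries that a search for outlying samples needs.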

How the results depend on the processing

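The decline of ribosomal protein genes with indisulam, the combination and PF-06873600 stayed within 1.5 times of the reported count of lower members under every alternative run. The palbociclib count of 15 did not and was 27 without a filter on low counts, 1 with only the compared groups in the fit and 1 to 48 with 1 library left out (1 to 2 members higher). Members higher were 1 with indisulam, 2 with the combination and 1 for the combination against palbociclib without the filter, against 0 reported. With only the compared groups, 1 was higher with the combination, both against untreated and against palbociclib. With 1 library left out they numbered 0 to 2 with indisulam, 0 to 1 in both of those comparisons of the combination, 0 to 1 in SUM159, and 6 to 22 for the difference between lines (22 without A549 untreated replicate 1, 7 without its replicate 2, 6 without A549 PF-06873600 replicate 1, and 7 without replicate 2 of SUM159 untreated or SUM159 PF-06873600, against 12 reported). RPL22 in SUM159, which did not pass the test, turned to 0.0049 without PF-06873600 replicate 1 and was -0.083 without replicate 2. RPL13 with palbociclib lay at the threshold and missed it with TMM factors (-0.18). Scaling moved the median of all genes by at most 0.093. The share of counts on members, with mitochondrially encoded genes left out of the total, was 6.70% with palbociclib, 5.86% with indisulam, 4.98% with PF-06873600, 4.33% in untreated SUM159 and 2.99% in treated SUM159, and with pseudogenes added it was 4.72% with PF-06873600 in A549. The causes were not tested.

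Replicate numbers gave no pairing that the labels or the data bear out. Deviations of same-numbered libraries correlated with r = -0.33 across 14341 genes for palbociclib and untreated cells, 0.29 for indisulam, 0.069 for the combination, 0.069 for PF-06873600 and 0.058 in SUM159. With the replicate block, 11 members were lower and 1 higher with palbociclib, and 72, 77, 72 and 79 lower with indisulam, the combination, PF-06873600 in A549 and PF-06873600 in SUM159. With the palbociclib numbers crossed, an alternative chosen after seeing the data, 24 were lower.

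Duplicates of 2 libraries and small counts limit RPL17, RPL36A, RPS10, RPL39L and RPL26L1 most.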
